A study of Mus musculus with 6 samples.

Results

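The genes described here were 48 genes that work in mitosis or at the G2/M boundary of the cell cycle. They were taken by name from the expression table of transplanted hematopoietic stem and progenitor cells (HSPCs), and all 48 of 48 were found among its 24965 genes. At 6 h after bone marrow transplantation (BMT), donor cells were sorted out of the recipients and measured by RNA-seq, with 3 libraries from WT and 3 libraries from Hemgn-/- donors. Donors were C57BL/6 mice carrying CD45.2, the Hemgn-/- line is a whole-body knockout made with zinc finger nucleases, and the methods describe young adult mice of both sexes. In both groups, 20000000 bone marrow cells were injected into CD45.1+ recipients that had received 9 Gy of irradiation as 4.5 Gy fractions. The labels describe the sorted cells as CD45.2+Lin-Sca-1+, and the methods add c-Kit to this gate. Values are FPKM, that is, fragments on a gene divided by its exon length and by the depth of the library, so levels can be compared between genes. The depth recovered from the FPKM values was 23668015 to 28897360 fragments per library. Fragments recovered on genes with this depth summed to more, 25213553 to 30812348 per library, and the reason was not tested.

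A cell enters mitosis when cyclin B bound to Cdk1 becomes active, which requires the Cdc25 phosphatases and is reinforced by the Aurora and Polo kinases. The spindle then attaches to chromosomes at their kinetochores. The anaphase promoting complex (APC/C) with its activator Cdc20 destroys cyclin B and securin, and the cytokinesis machinery divides the cell. Most of these genes are transcribed late in the cycle, and many have promoters with a CCAAT box, bound by NF-Y, and a cell cycle genes homology region (CHR), bound by the MuvB complex. Resting hematopoietic stem cells express them little, whereas dividing progenitors of all blood lineages express them strongly.

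Promoter windows from RefSeq, which run from 250 bases before to 50 bases after an annotated start in GRCm38.p6, were held for 41 of the 48 genes (45 windows). Ccna2, Cdc25c, Aurkb, Tpx2, Dlgap5, Smc4 and Cdca2 were not among them. The CHR letters TTTGAA, read on both strands with overlaps between motifs allowed, stood in 31 of the 45 windows (68.9%), in 17.9% of all 32851 windows and in 12.9% of the 11200 windows of genes tested. The CCAAT letters stood in 37 of the 45 windows (82.2%) and in 37.4% of all windows. Both motifs were present in 27 of the 45 windows (60%), against 6.95% of all windows, 37% of the 73 windows of other mitosis genes and 7.14% of the 42 windows of DNA replication and S phase genes. The CHR matches lay close to the start. In 28 of the 45 windows (62.2%) a match began within the last 60 bases before the start or after it, as it did in 5.5% of all windows. A match of letters is a description of the window and not a mapped binding site.

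A stretch of 107 bases, from position -110 to position -4 counted from the RefSeq start, is shown for 4 members that passed the test below, because it holds the motifs that these promoters share. They are the members with the lowest adjusted p among those with a motif in the stretch and at most 30 of its bases in an annotated exon. Each reads 5′ to 3′ on the strand of the gene, and capitals mark the CHR (TTTGAA, or TTCAAA on the other strand) and the CCAAT box (CCAAT or ATTGG). They lie at chr4:118437347-118437453 on the minus strand for Cdc20, chr2:164769819-164769925 on the plus strand for Ube2c, chr19:37376272-37376378 on the plus strand for Kif11 and chr11:99024193-99024299 on the minus strand for Top2a, all in GRCm38.p6. By GENCODE M21, 6 bases of the Cdc20 stretch and 28 of the Ube2c stretch fall in an exon of the gene, and 0 of those of Kif11 and Top2a.
Cdc20: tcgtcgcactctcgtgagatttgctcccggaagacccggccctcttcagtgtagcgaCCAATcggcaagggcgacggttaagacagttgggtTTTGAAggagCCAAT
Ube2c: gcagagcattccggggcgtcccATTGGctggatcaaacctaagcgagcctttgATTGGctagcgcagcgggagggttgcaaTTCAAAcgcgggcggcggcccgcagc
Kif11: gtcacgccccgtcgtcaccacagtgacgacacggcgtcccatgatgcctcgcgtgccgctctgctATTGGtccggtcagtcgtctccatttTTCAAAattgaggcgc
Top2a: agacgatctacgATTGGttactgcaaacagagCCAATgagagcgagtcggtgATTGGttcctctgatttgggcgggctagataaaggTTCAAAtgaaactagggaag
All 4 stretches held a CHR, which began at position -18 in Cdc20 and, on the opposite strand, at positions -29 in Ube2c, -19 in Kif11 and -23 in Top2a. Each also held a CCAAT box upstream of the CHR, at position -53 in Cdc20, -88 and -57 in Ube2c, -45 in Kif11, and -98, -78 and -58 in Top2a. Cdc20 had a further CCAAT box at position -8.

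The targeted gene was examined first. Hemgn, which encodes the hematopoietic nuclear protein hemogen, stood at 5.64, 2.96 and 4.68 FPKM for WT replicates and 0.755, 0.913 and 1.599 FPKM for Hemgn-/- replicates. No Hemgn-/- library reached the lowest WT library, and the log2 difference was -1.37 (adjusted p = 0.0114). The mutation is a small deletion in the coding sequence, so its transcript can still be made and counted.

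Mitosis and G2/M genes were reduced in donor cells that lacked Hemgn. Of the 48 genes, 47 had a negative log2 difference and 25 passed an adjusted p under 0.05 as lower. Among all 13739 genes tested, 2.09% passed as lower. None of the 48 passed as higher (0 of 48), against 4.37% of all genes tested, and the unadjusted p of limma was under 0.05 for 37 members that were lower and for 0 that were higher. Voom on the recovered fragments called 28 members lower and 0 higher. For 38 members every Hemgn-/- library lay below every WT library, a pattern seen in 8.18% of all genes tested. The median log2 difference was -0.57 over the members and 0.09 over all genes tested, and members ranged from -1.11 (Ube2c) to 0.21 (Cdc25b). Differences are Hemgn-/- minus WT in log2(FPKM + 1) from limma, and on this scale the change of a weakly expressed gene appears smaller than its ratio. Leaving out 1 library lowered the count of members called. It was 11, 15 and 14 without WT replicates 1, 2 and 3 in turn, and 18, 12 and 9 with Hemgn-/- replicates 1, 2 and 3 removed in turn, each time a subset of the 25.

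**Figure D1:**
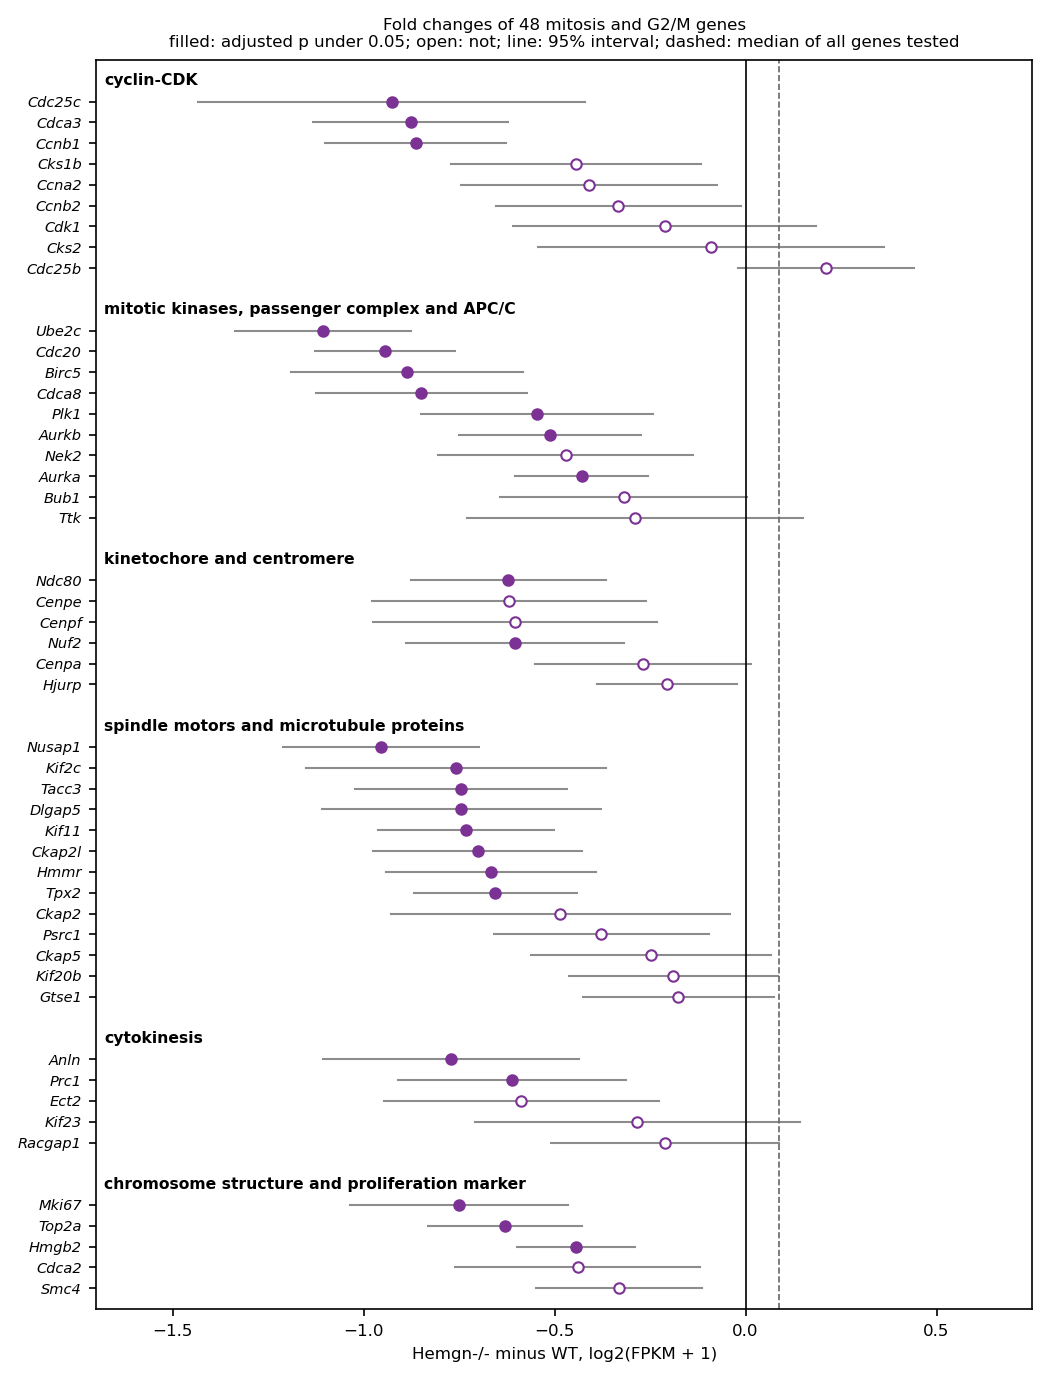
Log2 difference (Hemgn-/- minus WT, x axis) of each of the 48 genes, by function group, with its 95% interval from limma. Filled points passed an adjusted p under 0.05, and the dashed line is the median of all genes tested (0.09). All points but that of Cdc25b lie below 0.

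The sum of FPKM over the 48 genes was 997, 954 and 929.8 in WT libraries and 649.9, 656 and 641 in Hemgn-/- libraries. Without Hmgb2, by far the most abundant member, it was 656, 629 and 628 against 420.1, 407 and 409. The groups stood apart, and libraries of a group differed little. Within a library, the median over members of the log2 difference to the WT mean was 0.031, 0.0032 and -0.038 in WT and -0.549, -0.505 and -0.543 in Hemgn-/- libraries. The lowest of the 6 values was in a Hemgn-/- library for 47 members (15, 19 and 13 members in replicates 1, 2 and 3), and the exception was Cdc25b.

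**Figure D2:**
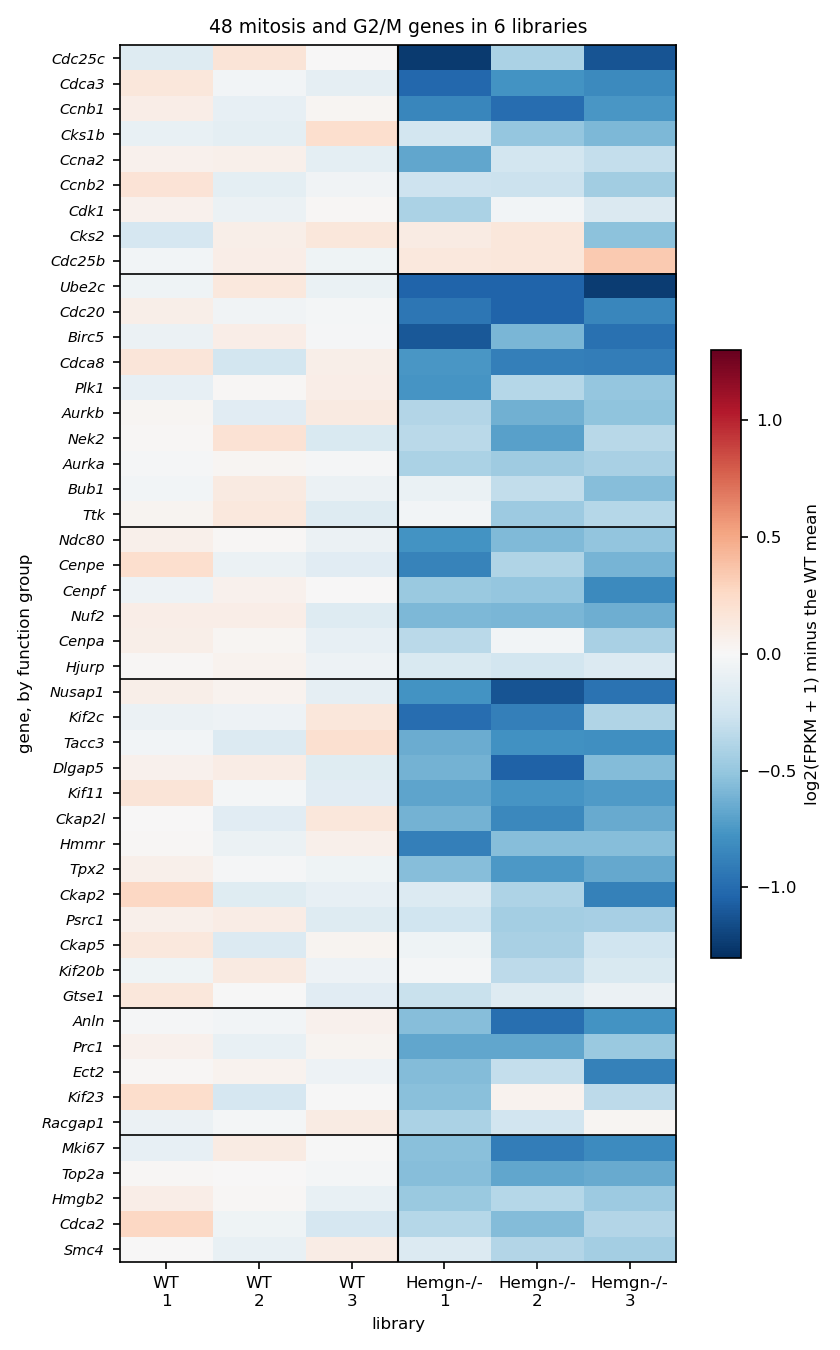
Heat map of the 48 genes (rows, by function group and then by log2 difference) in the 6 libraries (columns). Colour gives log2(FPKM + 1) minus the WT mean of the gene, with blue for lower values. The blue of the 3 Hemgn-/- columns runs through all function groups, and their medians over members were -0.549, -0.505 and -0.543.

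Among the 9 genes of the cyclin-CDK group, 3 passed as lower (2 or 3 with 1 library left out) and the median log2 difference was -0.41. Ccnb1, which encodes cyclin B1, the partner of Cdk1 in mitotic entry, was measured at 19.03, 16.5 and 18.3 FPKM for WT replicates and 9.497, 8.54 and 10.2 FPKM for Hemgn-/- replicates. This was 52.5% of the WT mean, with a log2 difference of -0.86 ± 0.10 (SE; adjusted p = 0.00257). Cdca3, which promotes mitotic entry through degradation of the Cdk1 inhibitor Wee1, stood at 17.96, 15.8 and 14.8 FPKM for WT replicates and 7.46, 8.97 and 8.63 FPKM for Hemgn-/- replicates. Its level was 51.6% of the WT mean, and the log2 difference was -0.88 ± 0.11 (adjusted p = 0.0035). Cdc25c, a phosphatase that activates Cdk1, read 4.31, 5.72 and 4.98 FPKM for WT replicates and 1.52, 3.48 and 1.75 FPKM for Hemgn-/- replicates. The groups did not overlap, but Hemgn-/- replicate 2 was well above the other two, and the log2 difference of -0.93 ± 0.22 was close to the threshold (adjusted p = 0.045), passing in 7 of 15 alternative settings.

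The other phosphatase of the group went the opposite way. Cdc25b stood at 11.7, 12.8 and 11.5 FPKM for WT replicates and 13.3, 13.4 and 15.5 FPKM for Hemgn-/- replicates. It was the only member with every Hemgn-/- library above every WT library, a pattern of 2634 of all 13739 genes tested. The log2 difference of Cdc25b, 0.21 ± 0.10, did not pass (adjusted p = 0.275). Cdk1 itself was low in both groups, at 1.78, 1.54 and 1.704 FPKM for WT replicates and 1.004, 1.61 and 1.35 FPKM for Hemgn-/- replicates, and the groups overlapped, with a log2 difference of -0.21 ± 0.17 (adjusted p = 0.532). Ccna2 and Ccnb2, which encode cyclins A2 and B2, had values of -0.41 and -0.33 on the log2 scale without overlap and without passing the test.

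The Cks proteins are small subunits that dock substrates on Cdk complexes, and the cyclin-CDK member with the smallest difference was Cks2. It was measured at 4.15, 5.31 and 5.63 FPKM for WT replicates and 5.48, 5.63 and 3.15 FPKM for Hemgn-/- replicates, with overlapping groups and a log2 difference of -0.09 ± 0.20 (adjusted p = 0.828), which became 0.13 without Hemgn-/- replicate 3. Its 95% interval ran from -0.54 to 0.36, and Hemgn-/- replicate 3 was the lowest library. Cks1b stood at 7.39, 7.18 and 9.42 FPKM for WT replicates and 6.602, 5.29 and 4.95 FPKM for Hemgn-/- replicates, with no overlap and a log2 difference of -0.44 ± 0.14 (adjusted p = 0.117). The coding sequences of the pair are shown to see how alike they are, because reads of near copies can be miscounted. They come from GENCODE M21 transcripts, with Cks1b at chr3:89415472-89418383 on the minus strand and Cks2 at chr13:51645232-51650660 on the plus strand of GRCm38, and capitals mark the bases that differ.
Cks1b: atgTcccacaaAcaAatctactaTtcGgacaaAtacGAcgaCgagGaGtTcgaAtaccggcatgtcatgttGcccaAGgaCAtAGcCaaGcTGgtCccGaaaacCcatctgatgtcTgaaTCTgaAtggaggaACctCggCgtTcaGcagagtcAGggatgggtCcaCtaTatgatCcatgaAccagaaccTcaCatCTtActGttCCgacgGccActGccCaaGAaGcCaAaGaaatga
Cks2: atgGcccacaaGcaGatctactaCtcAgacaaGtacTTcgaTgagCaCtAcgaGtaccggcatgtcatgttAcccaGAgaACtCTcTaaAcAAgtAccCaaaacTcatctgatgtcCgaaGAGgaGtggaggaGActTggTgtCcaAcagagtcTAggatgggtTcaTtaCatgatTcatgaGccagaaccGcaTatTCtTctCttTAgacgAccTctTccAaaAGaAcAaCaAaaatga
The 240 bases of each were identical at 177 positions (73.8%), and the longest identical run was 17 bases, so these coding sequences were not near copies.

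The group of mitotic kinases, the chromosomal passenger complex and APC/C partners had 10 genes, of which 7 passed as lower, with a median log2 difference of -0.53. The count was 4, 6 and 5 without WT replicates 1, 2 and 3 in turn and 6, 4 and 2 with Hemgn-/- replicates 1, 2 and 3 removed in turn. Ube2c, the ubiquitin-conjugating enzyme of the APC/C, had the largest decrease of all members. It stood at 26.8, 30.7 and 26.2 FPKM for WT replicates and 13.03, 12.97 and 11.3 FPKM for Hemgn-/- replicates, so that the Hemgn-/- mean was 44.5% of the WT mean and the log2 difference was -1.11 ± 0.10 (SE; adjusted p = 0.000663). Cdc20, the activator of the APC/C in mitosis, was measured at 74.6, 68.3 and 69.3 FPKM for WT replicates and 36.3, 33.8 and 38.8 FPKM for Hemgn-/- replicates. It had the lowest adjusted p of all members (0.00043), with a log2 difference of -0.94 ± 0.08 and a mean at 51.3% of WT.

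The 3 members that belong to the passenger complex, which corrects faulty attachments of chromosomes, passed as lower. Incenp, its scaffold, is not a member and is named here after its values were seen. It overlapped between groups, at 20.3, 17.95 and 15.5 FPKM for WT replicates and 15.4, 16.2 and 19.2 FPKM for Hemgn-/- replicates (log2 difference -0.08 ± 0.12, adjusted p = 0.761). Birc5, which encodes survivin, stood at 24.3, 27.3 and 25.3 FPKM for WT replicates and 11.4, 16.6 and 12.6 FPKM for Hemgn-/- replicates and had a log2 difference of -0.89 ± 0.13 (adjusted p = 0.0066). Cdca8, which encodes borealin, stood at 22.3, 16.7 and 20.9 FPKM for WT replicates and 11.3, 10.2 and 10.2 FPKM for Hemgn-/- replicates, with a log2 difference of -0.85 ± 0.12 (adjusted p = 0.00534). The kinase of the complex, Aurkb, was measured at 28.4, 25.1 and 30.3 FPKM for WT replicates and 21.1, 17.7 and 19.1 FPKM for Hemgn-/- replicates, and its log2 difference of -0.51 ± 0.10 was smaller than those of its partners (adjusted p = 0.0237). Whether Aurkb differed from its partners was not tested. Birc5 and Cdca8 did not pass once Hemgn-/- replicate 3 was left out, and Aurkb did not pass without WT replicate 1 or 3 or Hemgn-/- replicate 2 or 3 and passed in 9 of 15 alternative settings.

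Of the remaining kinases, Aurka, which acts at centrosomes, had closely spaced libraries, at 28.4, 29.3 and 28.3 FPKM for WT replicates and 21.4, 20.5 and 21.1 FPKM for Hemgn-/- replicates. Its mean was 73.4% of WT, and the log2 difference was -0.43 ± 0.08 (adjusted p = 0.0136). Plk1, the Polo kinase, stood at 7.05, 7.76 and 8.15 FPKM for WT replicates and 4.08, 5.68 and 5.11 FPKM for Hemgn-/- replicates and passed narrowly, with a log2 difference of -0.55 ± 0.13 (adjusted p = 0.0472), and it passed in 3 of 15 alternative settings. Ttk, a kinase of the spindle checkpoint, had the smallest difference of the group on the log2(FPKM + 1) scale, although its mean, at 71.3% of WT, was lower than those of Bub1 (78.03%) and Aurka. It was low, at 1.68, 1.88 and 1.33 FPKM for WT replicates and 1.56, 0.893 and 1.03 FPKM for Hemgn-/- replicates, and the groups overlapped (log2 difference -0.29 ± 0.19, adjusted p = 0.441). Nek2, which separates centrosomes, and Bub1, a checkpoint kinase, were lower without overlap, at -0.47 and -0.32 on the log2 scale, and did not pass.

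**Figure D3:**
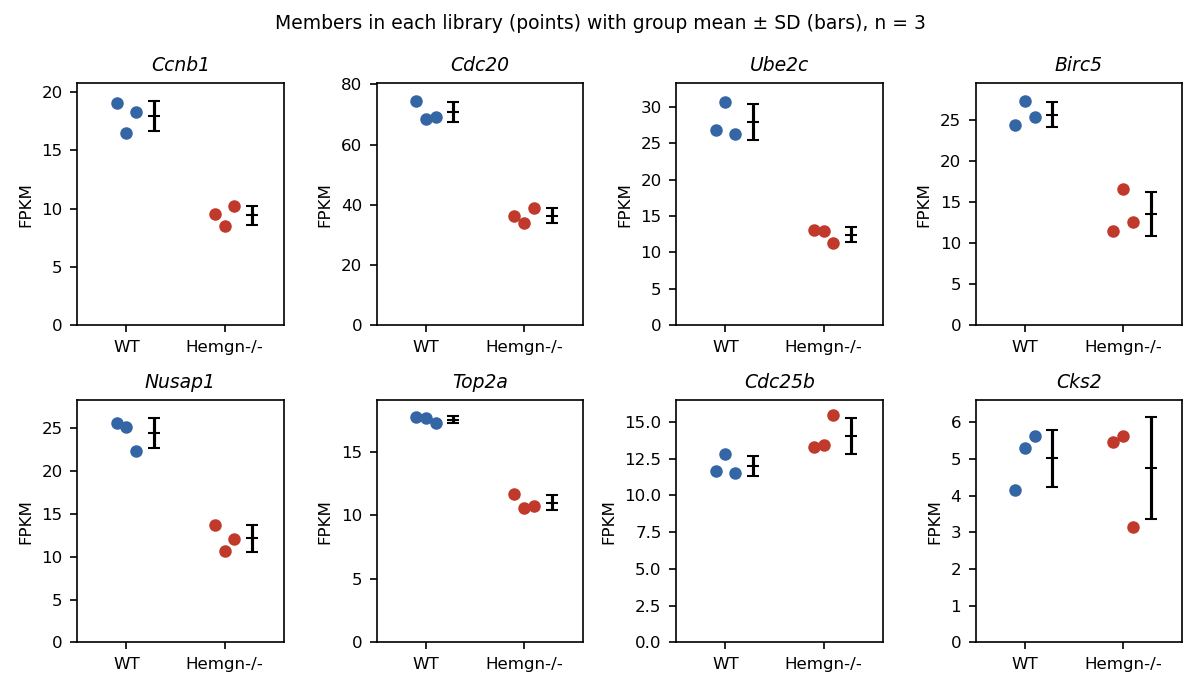
FPKM (y axis, from 0) of 8 members in each library, with the group mean and SD (n = 3) beside the points. Ccnb1, Cdc20, Ube2c, Birc5, Nusap1 and Top2a show no overlap and lower Hemgn-/- values, Cdc25b shows higher ones (means 12.0 and 14.1 FPKM), and the groups of Cks2 overlap.

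At the kinetochore and centromere, 2 of 6 genes passed as lower and the median log2 difference was -0.60. Both belong to the Ndc80 complex, which holds microtubules at the kinetochore. Ndc80 stood at 10.7, 10.3 and 9.66 FPKM for WT replicates and 5.55, 6.54 and 6.89 FPKM for Hemgn-/- replicates, a log2 difference of -0.62 ± 0.11 (SE; adjusted p = 0.0148). Its partner Nuf2 stood at 5.54, 5.53 and 4.495 FPKM for WT replicates and 3.11, 3.08 and 2.98 FPKM for Hemgn-/- replicates, with a log2 difference of -0.60 ± 0.13 (adjusted p = 0.0256). In both cases the libraries did not overlap. Ndc80 lost its call with any 1 of the 6 libraries left out and Nuf2 with any but WT replicate 3, so the count for this group was 1 without WT replicate 3 and 0 without any other library. Cenpe, a kinetochore kinesin, and Cenpf, a large kinetochore protein, had log2 differences of -0.62 and -0.60, close in size to those of Ndc80 and Nuf2, with no overlap and adjusted p-values of 0.0541 and 0.068. Hjurp, the chaperone that deposits the centromeric histone, had the smallest difference of the group, at 23.4, 23.98 and 22.1 FPKM for WT replicates and 19.99, 19.5 and 20.4 FPKM for Hemgn-/- replicates (log2 difference -0.21 ± 0.08, adjusted p = 0.188). The histone itself, Cenpa, overlapped between groups, at 14.7, 14.2 and 12.8 FPKM for WT replicates and 10.7, 13.5 and 10.1 FPKM for Hemgn-/- replicates.

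Spindle motors and microtubule proteins formed the largest group, and 8 of its 13 genes passed as lower, with a median log2 difference of -0.67. With WT replicates 1, 2 and 3 removed in turn 3, 5 and 4 passed, and with Hemgn-/- replicates 1, 2 and 3 removed in turn 6, 3 and 4. Nusap1, which bundles microtubules near chromosomes, was measured at 25.6, 25.2 and 22.4 FPKM for WT replicates and 13.8, 10.6 and 12.1 FPKM for Hemgn-/- replicates, which placed the Hemgn-/- mean at 49.8% of WT (log2 difference -0.95 ± 0.11, adjusted p = 0.00236). Kif11, the kinesin that pushes spindle poles apart, stood at 27.3, 23.8 and 21.8 FPKM for WT replicates and 14.6, 13.8 and 14.1 FPKM for Hemgn-/- replicates (log2 difference -0.73 ± 0.10, adjusted p = 0.00463). Tpx2, which activates Aurka on the spindle, stood at 21.2, 19.9 and 19.2 FPKM for WT replicates and 13.4, 11.6 and 12.3 FPKM for Hemgn-/- replicates (log2 difference -0.66 ± 0.09, adjusted p = 0.00534). These 3 genes passed in all 15 alternative settings.

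A further 5 genes of the spindle group passed, each in fewer of these settings. Kif2c, a kinesin that shortens microtubules, read 6.498, 6.57 and 7.76 FPKM for WT replicates and 2.98, 3.27 and 5.06 FPKM for Hemgn-/- replicates (log2 difference -0.76 ± 0.17, adjusted p = 0.037). Its Hemgn-/- replicate 3 was the highest of its group and still below every WT library. Tacc3, which crosslinks spindle microtubules, read 13.1, 11.8 and 15.7 FPKM for WT replicates and 8.22, 7.37 and 7.29 FPKM for Hemgn-/- replicates (log2 difference -0.75 ± 0.12, adjusted p = 0.00981). Dlgap5, which stabilizes fibers at kinetochores, read 5.93, 6.15 and 5.002 FPKM for WT replicates and 3.35, 2.23 and 3.51 FPKM for Hemgn-/- replicates (log2 difference -0.74 ± 0.16, adjusted p = 0.0303). The spread among Hemgn-/- libraries was wider for Dlgap5 than for Tacc3. Ckap2l, a spindle pole protein, read 10.3, 9.17 and 11.5 FPKM for WT replicates and 6.34, 5.32 and 6.17 FPKM for Hemgn-/- replicates (log2 difference -0.70 ± 0.12, adjusted p = 0.0115). Hmmr, which organizes spindle poles, read 13.1, 12.2 and 13.6 FPKM for WT replicates and 6.54, 8.48 and 8.49 FPKM for Hemgn-/- replicates (log2 difference -0.67 ± 0.12, adjusted p = 0.0148). For all 5 genes the groups did not overlap.

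The other genes of the spindle group did not pass. Gtse1, a microtubule protein of G2 and mitosis, had the smallest difference, at 17.6, 15.8 and 14.1 FPKM for WT replicates and 12.8, 13.9 and 14.9 FPKM for Hemgn-/- replicates with overlap (log2 difference -0.18 ± 0.11, adjusted p = 0.406). Kif20b, a kinesin of cytokinesis, and Ckap5, the microtubule polymerase that binds Tacc3, also overlapped, with log2 differences of -0.19 and -0.25. Ckap2 and Psrc1 did not overlap and had values of -0.49 and -0.38 on the log2 scale.

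Among 5 cytokinesis genes, 2 passed as lower, and the median log2 difference was -0.59. The count was 1 without Hemgn-/- replicate 1 and 0 without any other single library or with all genes above 0 FPKM, as Prc1 lost its call with each library left out and Anln with 5 of them. Anln, which encodes the contractile ring scaffold anillin, was measured at 4.401, 4.31 and 4.66 FPKM for WT replicates and 2.71, 1.76 and 2.18 FPKM for Hemgn-/- replicates, with a mean at 49.8% of WT (log2 difference -0.77 ± 0.15, adjusted p = 0.0186). Prc1, which bundles the microtubules of the central spindle, stood at 4.36, 3.83 and 4.29 FPKM for WT replicates and 2.22, 2.23 and 2.69 FPKM for Hemgn-/- replicates (log2 difference -0.61 ± 0.13, adjusted p = 0.0299). For both genes the 3 WT libraries lay close together and above all Hemgn-/- libraries. Racgap1 and Kif23, the subunits of centralspindlin, overlapped between groups. Racgap1 had the smallest difference, at 9.78, 10.2 and 11.3 FPKM for WT replicates and 7.59, 8.597 and 10.6 FPKM for Hemgn-/- replicates (log2 difference -0.21 ± 0.13, adjusted p = 0.403), and Kif23 stood at a log2 difference of -0.28. Ect2, which centralspindlin recruits to activate RhoA, did not overlap but did not pass (log2 difference -0.59, adjusted p = 0.0675).

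In the group of chromosome structure and proliferation marker genes, 3 of 5 passed as lower, none of the 5 overlapped between groups, and the median log2 difference was -0.44. With 1 library left out 1 to 3 passed, the 1 being Top2a without Hemgn-/- replicate 3. Top2a, the topoisomerase that untangles sister chromatids, stood at 17.7, 17.6 and 17.2 FPKM for WT replicates and 11.6, 10.6 and 10.7 FPKM for Hemgn-/- replicates. The WT libraries were almost level, and the log2 difference was -0.63 ± 0.09 (adjusted p = 0.00489). Mki67, which encodes the proliferation marker Ki-67, stood at 10.5, 12.3 and 11.3 FPKM for WT replicates and 7.48, 5.63 and 6.03 FPKM for Hemgn-/- replicates, with a mean at 56.1% of WT (log2 difference -0.75 ± 0.13, adjusted p = 0.0105). Hmgb2, a chromatin protein abundant in dividing cells, was the most highly expressed member, at 341, 325 and 302 FPKM for WT replicates and 229.7, 249 and 232 FPKM for Hemgn-/- replicates. Its decrease was smaller, to 73.4% of the WT mean (log2 difference -0.44 ± 0.07, adjusted p = 0.0073). Smc4, a subunit of condensin, had the smallest difference, at 43.2, 40.3 and 46.1 FPKM for WT replicates and 38.1, 32.9 and 31.6 FPKM for Hemgn-/- replicates (log2 difference -0.33 ± 0.10, adjusted p = 0.0833). Cdca2, which brings a phosphatase to chromosomes at anaphase, stood at a log2 difference of -0.44 and did not pass.

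Members that passed had higher levels than those that did not. The median WT mean was 16.2 FPKM over the 25 members that passed and 7.20 FPKM over the other 23, which had log2 differences from -0.62 to 0.21. Of these 23 members, 13 were lower with no overlap between groups and 9 overlapped. By the recovered fragments, the members stood on 63 (Cks2) to 25123 (Hmgb2) fragments per library, counted over the 43 members whose FPKM gave whole fragments, and Cdc25c, Ndc80, Kif11, Dlgap5 and Gtse1 did not. A total of 15 members lost their call in more than 1 of the alternative settings, and Birc5 and Cdca8 in 1. The fewest passes were 3 of 15 for Plk1 and 6 of 15 for Dlgap5. The 8 members that passed in all 15 alternative settings were Ccnb1, Cdca3, Cdc20, Ube2c, Kif11, Tpx2, Nusap1 and Top2a. Exons of 14 members share bases with another annotated gene, 10 of them among the members that passed, such as Cdc20 with Elovl1 and Nusap1 with Oip5 on the opposite strand. Reads of such pairs cannot be told apart where strand was not used in counting.

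The promoter motifs were set beside the fold changes. Of the 22 windows of members that passed, 63.6% held both CHR and CCAAT, and so did 56.5% of the 23 windows of members that did not. The median log2 difference was -0.59 over the 29 genes with a CHR in a window and -0.54 over the 12 genes without one. It was -0.47 over the 33 genes with a CCAAT box and -0.75 over the 8 genes without. Neither split of the members was tested.

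Genes around these members were compared by lists of the same pathway. Of 79 other mitosis genes, 76 were tested and 12 passed as lower, with a median log2 difference of -0.25. That count fell to 2 without WT replicate 1 and to between 3 and 5 without any other single library. The lowest on the log2(FPKM + 1) scale was Cdkn3, a phosphatase that acts on Cdk complexes, at 21.3, 24.1 and 25.6 FPKM for WT replicates and 9.71, 12.5 and 11.5 FPKM for Hemgn-/- replicates (log2 difference -1.01 ± 0.12, adjusted p = 0.00222). Cep55, which acts at abscission, came next and did not pass (log2 difference -0.85 ± 0.24, adjusted p = 0.0814). By the ratio of means Kif14, a kinesin of cytokinesis named after its values were seen, was lower still, at 29.99% of WT against 47.5% for Cdkn3, and did not pass (adjusted p = 0.07). Haus8, a subunit of augmin, had the highest value of the list (log2 difference 0.43 ± 0.11, adjusted p = 0.0578). Pttg1, which encodes securin, the APC/C substrate, was not lower, at 11.8, 9.77 and 13.4 FPKM for WT replicates and 13.8, 13.05 and 13.2 FPKM for Hemgn-/- replicates (adjusted p = 0.406).

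A list of 15 APC/C genes held core subunits and the activator Fzr1. None of them passed in either direction by limma (0 of 15), and their median log2 difference was -0.01. At an unadjusted p of limma under 0.05, 1 was lower (Fzr1, not a core subunit) and 1 higher (Cdc23). Voom on the recovered fragments called 0 of them in either direction. The lowest was Fzr1, the G1 activator of the complex, whose WT replicate 2 stood far above the others (6.84, 20.2 and 8.02 FPKM for WT replicates and 5.73, 5.28 and 2.58 FPKM for Hemgn-/- replicates). Its groups did not overlap, and its log2 difference of -1.10 ± 0.38 was as large as that of Ube2c but did not pass (adjusted p = 0.135). Anapc11 was at -0.13 and Anapc13 at 0.44 on the log2 scale. Cdc20 and Ube2c, the mitotic partners of the same complex, stood at -0.94 and -1.11.

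Regulators of G2/M transcription and of Cdk1 gave 0 lower and 1 higher of 19 tested by limma, with 1 lower at an unadjusted p under 0.05 and 0 lower by voom, and a median log2 difference of -0.10. Foxm1, a transcription factor of G2/M genes, was low and variable, at 1.53, 3.37 and 1.104 FPKM for WT replicates and 1.79, 1.77 and 1.14 FPKM for Hemgn-/- replicates (log2 difference -0.16 ± 0.28, adjusted p = 0.775), and its sign turned positive without WT replicate 2 (0.14). Mybl2, the Myb protein that joins MuvB, stood at 1.61, 3.26 and 2.62 FPKM for WT replicates and 1.42, 2.38 and 1.599 FPKM for Hemgn-/- replicates (log2 difference -0.31 ± 0.22, adjusted p = 0.472). Tfdp1, the partner of E2F proteins, and Cdc25a, the third Cdc25 phosphatase, had the lowest values on the log2(FPKM + 1) scale, -0.34 and -0.32, and did not pass. E2f5, an E2F protein of the repressive DREAM complex, rose, at 2.37, 2.21 and 1.802 FPKM for WT replicates and 6.99, 3.79 and 4.84 FPKM for Hemgn-/- replicates (log2 difference 0.96 ± 0.20, adjusted p = 0.0237), and passed in 8 of 15 alternative settings, though with none of the WT replicates and neither Hemgn-/- replicate 1 nor 3 left out.

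In summed FPKM and in their median, genes of DNA replication and S phase were nearly level between groups. Of 47 tested, 1 passed as lower and 1 as higher, with a median log2 difference of -0.07, against 0.09 over all genes tested. Their summed FPKM was 551, 542 and 559 in WT and 559, 534 and 582 in Hemgn-/- libraries. Single genes went both ways, with 4 lower and 7 higher at an unadjusted p of limma under 0.05. Groups did not overlap for 6 that were lower and 8 that were higher, against 1124 and 2634 of all 13739 genes tested. Rrm2, a subunit of ribonucleotide reductase, was the gene that passed as lower, although it did not pass without WT replicates 1, 2 or 3 or Hemgn-/- replicates 1 or 2, at 9.62, 9.63 and 10.4 FPKM for WT replicates and 5.14, 5.64 and 7.04 FPKM for Hemgn-/- replicates (log2 difference -0.66 ± 0.13, adjusted p = 0.0188). Gins3, a helicase subunit, did not pass (log2 difference -0.58 ± 0.16, adjusted p = 0.0725), and Ung, a uracil glycosylase, passed as higher (log2 difference 0.56 ± 0.12, adjusted p = 0.0339), but in 4 of 15 alternative settings and with no library left out. The ranges of the sums overlapped here, while those of the mitosis and G2/M members did not. Whether the 2 lists differ beyond the spread between libraries was not tested.

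**Figure D4:**
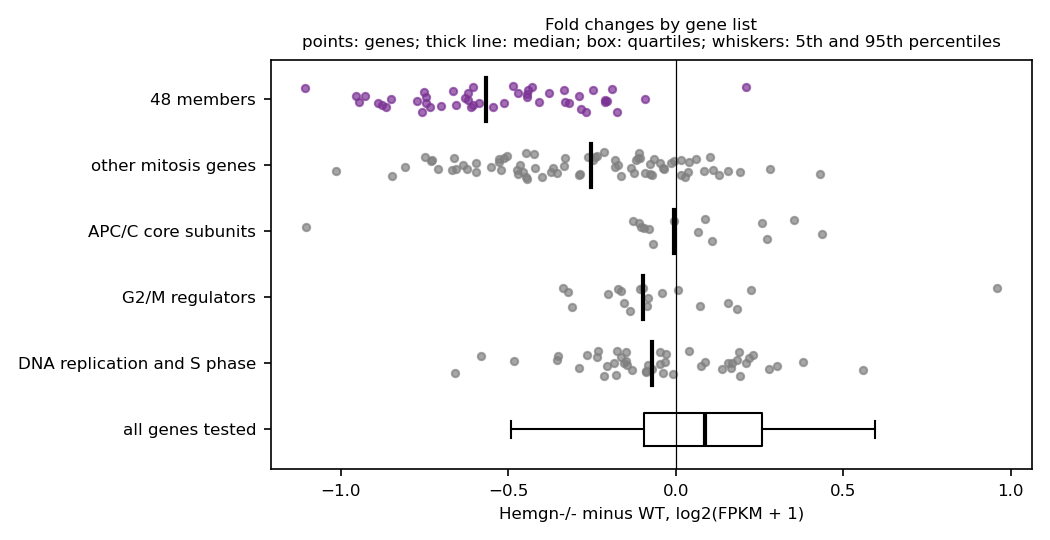
Log2 difference (Hemgn-/- minus WT, x axis) of the genes tested in each list, 1 point per gene, with the list median as a thick line. The box holds the quartiles of all 13739 genes tested, and its whiskers run from the 5th to the 95th percentile. The medians were -0.57 for the 48 members, -0.25 for other mitosis genes, -0.01 for APC/C core subunits with the activator Fzr1, -0.10 for G2/M regulators and -0.07 for replication and S phase genes.

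Markers of other cells also differed between groups, some lower and some higher in Hemgn-/- libraries. The gate genes were present but modest, with Kit at 6.58 ± 0.581 FPKM (SD, n = 3) for WT against 5.68 ± 0.206 FPKM for Hemgn-/- and Ly6a, which encodes Sca-1, at 9.38 ± 1.01 FPKM (SD, n = 3) for WT against 14.7 ± 3.01 FPKM for Hemgn-/-, while Mecom, a stem cell gene, stayed under 1 FPKM in every library. Transcripts of lineages that the gate is meant to remove were abundant. Ngp, a neutrophil granule gene, was at 44876 ± 1761 FPKM (SD, n = 3) for WT against 27132 ± 754 FPKM for Hemgn-/-, and Cd79a, a B cell gene, at 420.4 ± 12.3 FPKM (SD, n = 3) for WT against 493 ± 59.5 FPKM for Hemgn-/-. Of 12 neutrophil granule genes, 8 passed as lower, and their summed FPKM was 58638 to 62901 in WT and 35737 to 37236 in Hemgn-/- libraries. Mpo and Elane, which mark granulocyte precursors, were both lower, at log2 differences of -0.31 and -0.73 (adjusted p = 0.0265 and 0.00148). Of the same list, Prtn3, Ctsg, Gfi1 and Lcn2 did not pass, with log2 differences of -0.37, -0.21, 0.15 and -0.56. All of these but Prtn3 overlapped between groups. Of 11 erythroid genes tested out of 14, 5 passed as lower, and the sum was 510.4 to 597 in WT and 76.8 to 100.9 in Hemgn-/- libraries. Of 8 B cell genes, 3 passed as higher, with sums of 1165 to 1226 in WT and 1384 to 1558 in Hemgn-/- libraries. Among the remaining lists, 3 of 11 eosinophil and basophil genes were lower, 1 of 7 macrophage genes was lower and 2 were higher, and 1 of 7 T and NK cell genes, 2 of 6 plasmacytoid dendritic cell genes and 1 of 9 HSPC genes were higher. Of all genes tested, 2.09% passed as lower and 4.37% as higher, and counts of 1 gene say little beside these shares. The 3 lower ones of the eosinophil and basophil list were the eosinophil genes Epx, Prg2 and Prg3. Of its other eosinophil genes, Ear1 and Ear6 overlapped between groups, with log2 differences of -0.12 and 0.11. Ear2 was lower without overlap and did not pass (log2 difference -0.51, adjusted p = 0.109). The basophil genes Mcpt8, Cpa3, Fcer1a and Prss34 had log2 differences from -0.10 to 0.33 and did not pass. No listed marker was at 0 in all libraries. The part of these cells in the lower mitosis and G2/M values was not tested. In bulk RNA, fewer dividing cells and less of these transcripts per cell cannot be told apart.

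**Figure D5:**
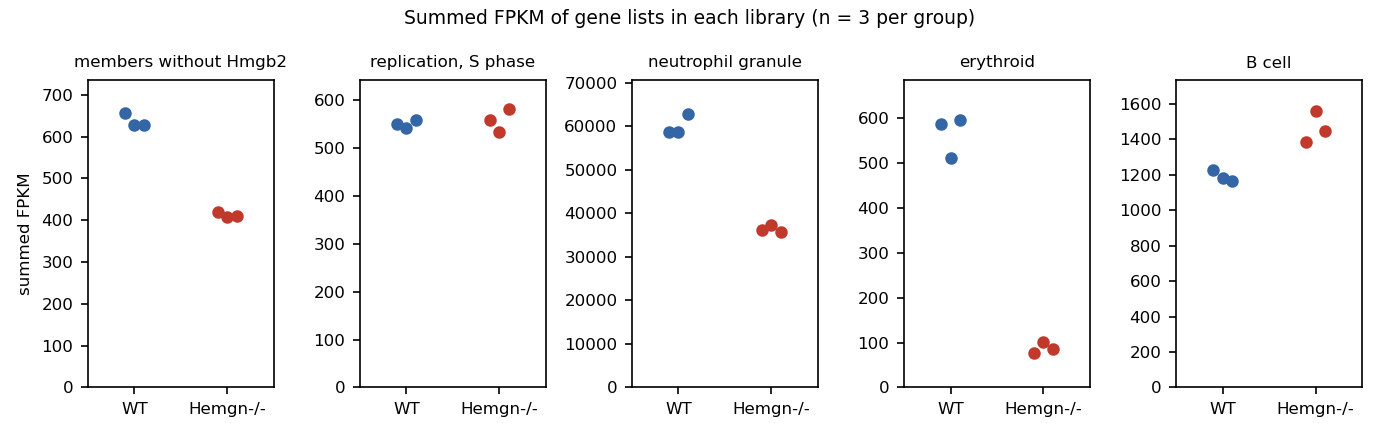
Summed FPKM (y axis, from 0, a separate scale in each panel) of 5 gene lists in each of the 6 libraries. The members without Hmgb2, the neutrophil granule genes and the erythroid genes were lower in all 3 Hemgn-/- libraries, the B cell genes were higher, and the ranges of replication and S phase genes overlapped.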

How the data were processed

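RNA-seq was performed on 6 libraries of donor cells sorted at 6 h post-BMT, grouped by the genotype in the labels (3 WT, 3 Hemgn-/-). The authors deposited FPKM per gene, 1 column per library, and 0 columns were left unmapped. Per the submitters' processing notes, Bowtie2 2.2.3, HISAT2 2.1.0, TopHat2, HTSeq 0.6.0 and GRCm38 were used. Of 24965 Ensembl identifiers, 24921 matched GENCODE M21, which gave symbols and exon lengths. Labels and methods differ on the gate, the injection route and the library kit.

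The members and all gene lists were chosen with earlier results of these data known. The 13739 genes that exceeded 1 FPKM somewhere entered the comparison as log2(FPKM + 1) in limma 3.58.1 in R 4.3.3 (lmFit, eBayes with trend), two-sided, and p-values were adjusted by Benjamini-Hochberg across the 13739. The methods call the libraries biological replicates. Fragments were recovered from FPKM steps (95.7% of 13472 low genes were whole within 0.05 fragments) and used for voom only. Replicates differed by more than sampling noise (chi-square per gene 17.5 to 35.2). All 48 members could be named. Those past an adjusted p under 0.05 and the smallest difference in each function group are given in full, and from each context list the 2 lowest and the highest, with Foxm1, Mybl2 and Pttg1. No protein sequence was used here. The alternatives were a pseudocount of 0.1, 2 other filters, median-ratio, TPM and quantile scaling, a replicate block, eBayes with no trend, voom, and leaving out each library.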

Additional observations from a re-analysis of the deposited data

How the results depend on the processing

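The number of members lower in Hemgn-/- (25 of 48) was 9 to 18 when 1 library was left out, 17 with all genes above 0 FPKM or with eBayes without a trend, and 23 to 28 under the other pseudocount, filter, scalings and voom, and 46 or 47 members had a negative difference in every setting. Their median log2 difference (-0.57) was -0.649 with a pseudocount of 0.1, -0.652 with median-ratio scaling and with quantile normalization, -0.659 with voom and -0.586 to -0.515 when 1 library was left out. The count of other mitosis genes lower (12) was 6 with all genes above 0 FPKM, 6 without a trend and 2 to 5 when 1 library was left out. For G2/M regulators 1 gene was lower with median-ratio scaling instead of 0. Replication and S phase genes lower (1) numbered 0 with all genes above 0 FPKM, 2 with quantile normalization, 0 without a trend and 0 to 1 when 1 library was left out. When 1 library was left out, the difference of Cks2 ranged from -0.21 to 0.13 (positive without Hemgn-/- replicate 3) and that of Foxm1 from -0.38 to 0.14 (positive without WT replicate 2). Fewer samples enter when a library is left out, and the cause of the other changes was not tested. Over all genes tested, 287 were lower and 600 higher, against 387 and 342 with median-ratio scaling, 346 and 368 with quantile normalization, 238 and 1049 with TPM, 157 and 309 with all genes above 0 FPKM, 153 and 237 without a trend, and 111 to 178 lower when 1 library was left out. Replicate numbers did not pair the libraries (correlations of same-numbered deviations -0.0428, -0.00936 and 0.0111), and with the replicate number as a block 21 members were lower. Amplified fragments are not independent molecules.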
